A study of Mus musculus with 96 samples.

Results

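Krt16-high and Krt16-low sister cells are the daughters of 31 of 48 divisions of cultured horizontal basal cells (HBCs), the p63-positive stem cells at the base of the olfactory epithelium, which lines the nose. A division was taken when the daughter with more Krt16 transcript had at least 2 times the value of the other, after each count had been divided by the summed counts of the ERCC spike-in RNAs of the same cell. The rule therefore used the measured Krt16 values, and the Krt16 difference between these sisters is a description of how they were chosen. It took 62 of 96 cells and left 17 pairs, in which the sisters differed by less than that fold.

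The HBCs came from wild type mice, 6 to 8 weeks of age and of both sexes, whose olfactory epithelium was collected 2 days after methimazole, a drug that makes the epithelium detach and its basal cells divide. Cells were grown as primary cultures and switched from a Tropoelastin to a Fibronectin coating. The study reports lower p63 and higher Ki67 on Fibronectin than on Tropoelastin. Single daughters were picked by mouth pipette after division with the pairing noted, and polyadenylated RNA of each cell was sequenced with ERCC spike-in RNA. No treatment or genotype separated the cells, and Krt16-high and Krt16-low are classes made from the readout. The labels name neither the mouse nor the culture of a cell, so the 96 cells stand as 1 sample of 1 condition, the spread given below is between pairs of that sample, and no p-value is given. The deposited names place the cells in 12 sets of 8, and each set held 2 to 4 of the 31 pairs.

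Keratins are the proteins of the intermediate filaments of epithelial cells, and each filament is built from a type I and a type II keratin in equal amount. Krt5 and Krt14 are the pair of resting basal cells, while Krt16 and Krt17 (type I) and Krt6a and Krt6b (type II) are known from wounded and hyperproliferative epidermis, where they rise within hours of injury. In the nose, HBCs are largely quiescent until the epithelium is damaged, and the transcription factor p63, encoded by Trp63, holds them in the basal state.

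Krt16 (ENSMUSG00000053797) lies at chr11:100246091-100248902 of GRCm38, on the minus strand, in the cluster of type I keratin genes. Its reference transcript has 8 exons and 1565 bases. The Krt17 gene is 7314 bases away and the Krt14 gene 38542. Between Krt14 and Krt16, 14012 bases from Krt16, lies the unprocessed pseudogene Gm11597 (ENSMUSG00000084257) at chr11:100228845-100232078, also on the minus strand. The same 100 bases of exon 4 are shown from each of these genes and from the neighbouring type I keratin Krt42, because they show how nearly alike the counted sequences are. They were read from the GENCODE M21 reference transcripts in the sense direction, 5′ to 3′, and capitals mark bases that differ from Krt16. The stretch is coding sequence in the 4 keratins.
Krt16 (chr11:100247343-100247442): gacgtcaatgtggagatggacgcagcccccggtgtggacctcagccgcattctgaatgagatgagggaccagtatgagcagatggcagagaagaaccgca
Gm11597 (chr11:100229947-100230046): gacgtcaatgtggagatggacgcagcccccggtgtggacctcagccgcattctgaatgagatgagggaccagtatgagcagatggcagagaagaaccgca
Krt14 (chr11:100204662-100204761): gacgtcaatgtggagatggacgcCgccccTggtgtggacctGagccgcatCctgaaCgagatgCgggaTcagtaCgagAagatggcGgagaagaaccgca
Krt17 (chr11:100258438-100258537): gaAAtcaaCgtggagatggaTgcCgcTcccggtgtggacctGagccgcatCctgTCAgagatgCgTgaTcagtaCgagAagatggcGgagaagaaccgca
Krt42 (chr11:100265629-100265728): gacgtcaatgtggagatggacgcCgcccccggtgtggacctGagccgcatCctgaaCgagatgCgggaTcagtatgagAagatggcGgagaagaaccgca

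Gm11597 had 0 mismatches to Krt16 in this stretch, Krt42 had 8, Krt14 had 10 and Krt17 had 17. The stretch belongs to a run of 409 bases, from base 764 to base 1172 of the Krt16 transcript, that is identical in the pseudogene. Of the 50-base words of the Krt16 transcript, 25.2% occur in Gm11597, 12.4% in Krt14, 0.396% in Krt17 and 0 in Krt42, and 37.6% occur in some other gene. With 100-base words 24.3% of the Krt16 words occurred in some other gene, 21.1% in Gm11597 and 3.14% in Krt14. Reads from the shared words cannot be told apart by sequence, so the counts of Krt16, of Gm11597 and of Krt14 are uncertain. The shares of words take no account of abundance. Krt14 had 3672 TPM (transcripts scaled to length and library total) in the median cell, against 33.8 TPM of Krt16. How many Krt14 reads were counted as Krt16 was not tested.

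Gm11597 was examined after its values had been seen. It had a count in 65 cells, and its 16880 counts over all cells equalled 4.03% of the 418826 counts of Krt16. It was counted in 44 of the 49 cells with at least 1000 normalized counts of Krt16 and in 21 of the 47 cells below that level. Between sisters it was higher in the Krt16-high cell in 23 pairs, lower in 3 and equal in 5, with a median log2 ratio of 3.60. Given the shared sequence, Gm11597 is no separate measurement. When both sets of counts were summed, 32 pairs passed the 2-fold rule, and all 31 pairs chosen by Krt16 alone were among them.

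Krt16 was counted in all 96 cells, with 4 to 93688 counts and a median of 1205.5. Values are given from here on as normalized counts, which are counts divided by the cell's summed ERCC counts relative to the mean over the 96 cells. In the Krt16-high sisters the lowest value was 28.6, the median 3034 and the highest 89335. In the Krt16-low sisters the corresponding values were 2.60, 239 and 9359. The classes overlapped widely between pairs, since 24 Krt16-high cells were below the highest Krt16-low cell and 29 Krt16-low cells were above the lowest Krt16-high cell. High and low are therefore relative to the sister, and a Krt16-low cell of 1 pair could hold more Krt16 than a Krt16-high cell of another. At least 1000 normalized counts were found in 23 Krt16-high and 7 Krt16-low cells, and at least 10000 in 7 Krt16-high and 0 Krt16-low cells.

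The ratio between the chosen sisters ran from 2.13 to 34421 with a median of 8.91. It was at least 4 in 24 pairs, at least 10 in 15 and at least 20 in 4. The pairs just inside the threshold were pair 36, with a ratio of 2.13 (307 against 144), pair 41, with 2.14 (1280 against 597), and pair 5, with 2.23 (20831 against 9359). Just outside it were pair 40, with a ratio of 1.97 (3089 against 1572), pair 31, with 1.87, and pair 8, with 1.82 (44292 against 24385). The plot of Krt16 in both sisters shows no gap at the threshold. Pair 4 stood far above the rest with 89335 against 2.60, and pair 46 followed with a ratio of 58.3 (31955 against 548). The Krt16-high cell was the one numbered daughter 1 in 13 of the 31 pairs.

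**Figure D1:**
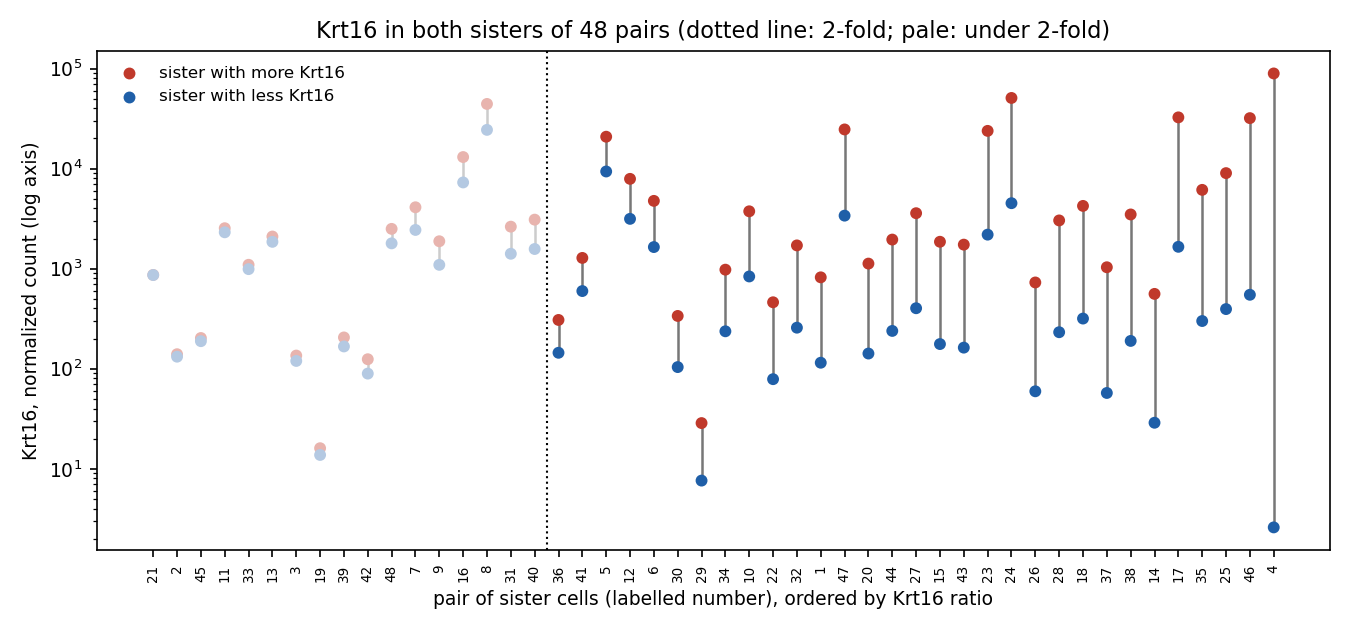
Krt16 in both sisters of the 48 pairs, as normalized counts on a log axis, with pairs ordered by the ratio between sisters and a dotted line where the ratio reaches 2. The 31 pairs chosen by the rule run from a ratio of 2.13 to 34421 without a gap at the line, and their levels overlap with each other and with those of the other 17 pairs.

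A 2-fold difference between sisters was common in these data. Over the 14463 genes that had at least 10 counts in 10% of the cells, the median gene reached it in 28 of 48 pairs (5th to 95th percentile 8 to 39), and 39.0% of them reached it in at least 31 pairs, as Krt16 did. The keratins of the same wound group, which are more abundant, reached it less often, with 14 pairs for Krt6b, 13 for Krt6a and 5 for Krt17. Per transcript length, the median cell had 33.8 TPM (transcripts scaled to length and library total) of Krt16, against 4647 TPM of Krt17, 3672 TPM of Krt14, 2801 TPM of Krt6a, 2090 TPM of Krt5 and 223 TPM of Krt6b. ERCC RNAs, which were added in the same amount to every cell, also reached 2-fold at low abundance. Among the 15 ERCC RNAs with a mean of 1000 to 10000 normalized counts, the number of pairs at 2-fold was 3 to 39 (median 15). The Krt16 mean of 5124 lies in this range of means, and 3 of the 15 reached at least 31 pairs. Krt16 was under 1000 in 47 cells, however, and its median in the Krt16-low sisters was 239. The 17 ERCC RNAs with a mean of 100 to 1000 reached 2-fold in 22 to 40 pairs (median 34). Of these 17, 12 reached it in at least 31 pairs. How much of the Krt16 difference in a given pair is of this kind was not tested.

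Pair 4 went against its label and is described first, because several values below were computed with and without it. Its Krt16-low sister had the lowest summed HBC marker level of the 96 cells, at 5960 normalized counts against 33811 in the next lowest cell and a median of 318811. It was also the cell least similar to the others, with a median Spearman correlation across genes of 0.597 to the other cells (median cell 0.687). Its sister had a marker sum of 329036, close to the median. The genes of this pair were picked by the size of their difference, after their values had been seen. Among 875 genes with at least 10000 normalized counts in either sister, 539 were at least 2-fold higher in the Krt16-high sister and 95 at least 2-fold lower.

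The Krt16-high sister of pair 4 had the highest value of all 96 cells for Krt16, for its partners Krt6a (750444 against 587) and Krt6b (103083 against 40.9), and for genes of the outer layers of stratified epithelia. These were Cnfn, a cornified envelope protein (403407 against 27.9), Ecm1, an extracellular matrix protein of the epidermis (95267 against 29.2), Ly6d, a surface protein of keratinocytes (40304 against 0), and Sbsn, secreted by suprabasal keratinocytes (32986 against 5.19). Tgm1, the transglutaminase that cross-links the envelope, stood at 16782 against 7.79. Of 15 suprabasal and envelope genes that passed the filter, 14 were higher in this sister, with a median log2 ratio of 9.05. The small proline-rich (Sprr) envelope genes did not share this order, since 5 of the 11 that passed were higher and 6 lower (median -2.29), and Sprr2a1 stood at 104737 against 747411 in the Krt16-low sister.

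The Krt16-low sister of pair 4 had the highest value of all 96 cells for several genes of detoxification and secretion. Of 16 olfactory xenobiotic enzymes that passed the filter, 11 were higher in this sister and 5 lower. Cyp2a5, a cytochrome P450 of nasal mucosa and liver, stood at 168508 against 82.96 in its sister, and Ugt2a1, the olfactory glucuronosyltransferase, at 112900 against 39.1. Ephx1, an epoxide hydrolase, stood at 60618 against 951, Sgk1, a kinase of ion transport, at 77465 against 1043, and Sftpd, a surfactant protein, at 21182 against 14.3. The sustentacular cell markers Cyp2g1, Ermn and Sult1c1 were at 0 in both sisters, and Epcam, of epithelial cells, was alike in both (18287 and 18544 normalized counts). No name is given to this cell.

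Both sisters of pair 4 were low in cell cycle transcripts. The S phase list stood at -5.79 in the Krt16-high and -7.41 in the Krt16-low sister, in log2 units from the median of the 96 cells, and Mki67, a marker of cycling cells, was at 121 and 77.9 against a median of 15919. The Krt16-low sister also had the larger ERCC share (4.50% against 2.69%) and the larger mitochondrial share (3.84% against 2.00%) with fewer genes counted (11654 against 12291). The part of these measures in the difference was not tested. The plot of pair 4 sets these genes beside the median cell.

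**Figure D2:**
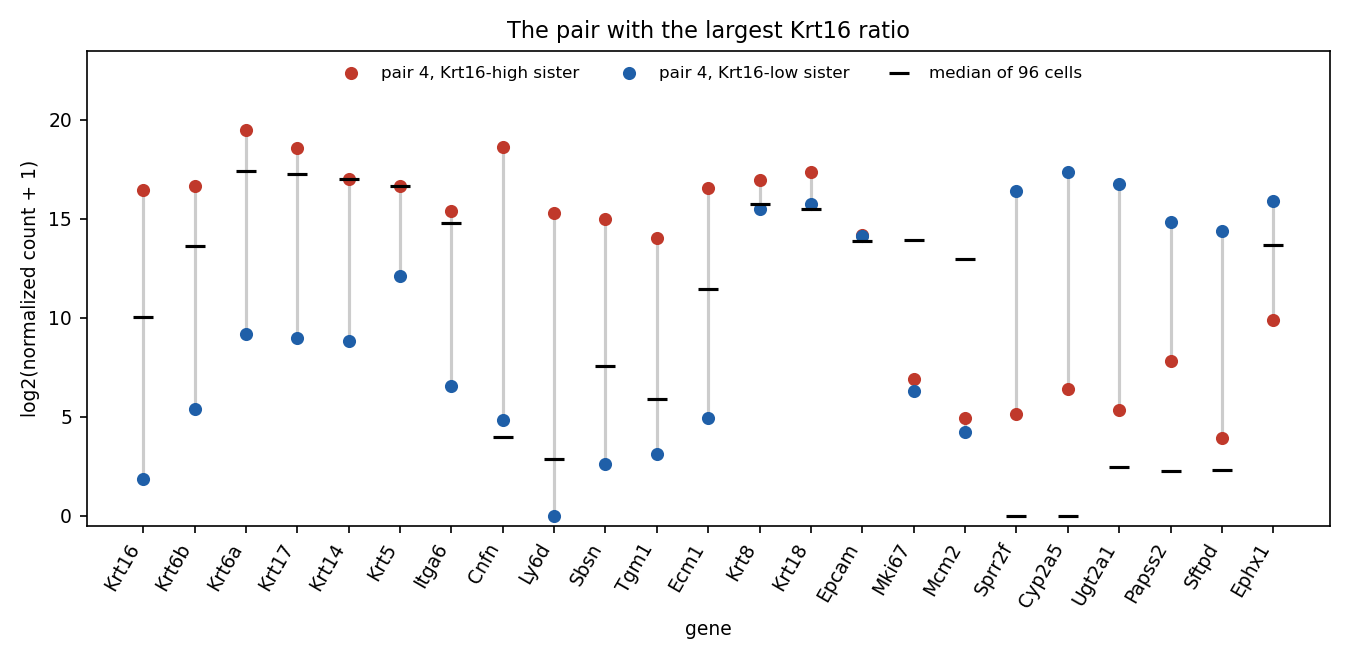
Normalized counts, on a log axis, of 23 genes in the Krt16-high and Krt16-low sister of pair 4 and in the median of the 96 cells. The wound keratins stood higher in the Krt16-high sister, Cyp2a5 and Ugt2a1 in the Krt16-low sister, and Mki67 below the median cell in both.

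Depth was alike in the 2 classes. The 96 libraries held 2.95e+07 to 4.48e+07 gene counts, and ERCC RNA took 1.06% to 5.75% of the counts. Between the sisters of the 31 pairs, gene counts were higher in the Krt16-high cell in 16 pairs and lower in 15, and the number of genes counted was higher in 15 and lower in 16. Gene counts per ERCC count, a measure of RNA content, were higher in 20 pairs and lower in 11, with a median log2 ratio of 0.04. The mitochondrial share was lower in the Krt16-high cell in 20 pairs and higher in 11 (median log2 ratio -0.10). Across genes, Krt16-high and Krt16-low sisters were about as similar as sisters of the other pairs, with a median Spearman correlation of 0.730 (0.639 to 0.774, n = 31) against 0.709 (0.671 to 0.764, n = 17), and pair 4 was the least similar of the 48.

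Few other genes followed Krt16 across the pairs. A gene was called past the fold when its median log2 ratio between Krt16-high and Krt16-low sister was at least 1 in size and its direction was the same in at least 75% of the 31 pairs. Of 14462 genes other than Krt16, 3 were past the fold in the Krt16-high direction (0.0207%) and 3 in the Krt16-low direction (0.0207%). On the same 31 pairs, 0 genes were past it in the Krt16-high direction with library totals, with TPM or with a pseudocount of 100, so the calls of the 3 higher genes end there, while the 3 lower genes kept theirs. The median log2 ratio over all these genes was 0, with a 5th to 95th percentile of -0.67 to 0.70. With so few calls among so many genes, the 6 are given as values.

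Pmaip1, which encodes the p53-induced cell death protein Noxa, had 2.37, 648 and 9166 normalized counts (lowest, median and highest) in the Krt16-high sisters and 0, 385 and 11649 in the Krt16-low sisters. It was higher in the Krt16-high sister in 25 pairs and lower in 6, with a median log2 ratio of 1.92 and an SD over pairs of 3.68. Dnase1l1, of the DNase I family, had a median of 502 against 7.49 and was higher in 24 pairs (1.78), and Ranbp10, a Ran-binding protein, had a median of 1552 against 617 and was higher in 24 pairs (1.21). The ranges of the classes overlapped for all 3. Leaving out 1 set of 8 cells took the median log2 ratio of Pmaip1 to 1.26 (set 8 or 9) and that of Ranbp10 to 0.79 (set 11), which ends its call. Without set 4, and likewise without set 10, 2 of the 3 genes kept their calls.

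In the other direction, Adnp2, a zinc finger and homeobox protein, had a median of 10.5 normalized counts in the Krt16-high and 715 in the Krt16-low sisters and was lower in the Krt16-high sister in 24 pairs (median log2 ratio -2.88). Polr3f, a subunit of RNA polymerase III, had 374 against 1081 and was lower in 24 pairs (-1.64). Src, the tyrosine kinase, had 1145 against 1573 and was lower in 24 pairs (-1.42). The lowest value was 0 in both classes for Adnp2, Polr3f and Src.

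In the 17 pairs outside the rule, ordered in the same way by the sister with more Krt16, only Ranbp10 of the 6 genes kept its sign. The median log2 ratio there was -0.30 for Pmaip1, -0.51 for Dnase1l1, 0.10 for Ranbp10, 0.00 for Adnp2, 0.77 for Polr3f and 1.49 for Src. Which genes were past the fold also moved with the choice of pairs. In the 24 pairs with a ratio of at least 4, 24 genes were past the fold upward and 19 downward, of which 1 and 3 were among those named above. In the 37 pairs with a ratio of at least 1.5, 5 were past it upward and 0 downward, none of them named above.

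Among the 6651 genes with a mean of at least 1000 normalized counts, the 12 with the highest median log2 ratio ran from 1.71 to 2.91 and were led by Fam234b (2.91), Urb1 (2.39, and 1.44 without set 4 or 7), Tbc1d14 (2.29, and 1.22 without set 4 or 7) and Enc1 (2.05, and 1.31 without set 9). Urb1, a ribosome biogenesis factor, was higher in 21 of 31 pairs. These 12 genes had means of 1047 to 1704, close to the lower limit, and SDs over pairs of 3.68 to 8.00 log2 units. Of the 12, 4 had the same sign in the other 17 pairs. The 12 with the lowest ratio ran from -2.04 to -1.57 and were led by Fastkd2, a mitochondrial RNA-binding protein (-2.04, and -1.34 without set 1, 10 or 12), and Polrmt, the mitochondrial RNA polymerase (-1.95, and -0.46 without set 9). Of these, 7 had the same sign in the other pairs. The plot of median ratio against abundance shows how the spread of the ratios narrows as the mean rises.

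**Figure D3:**
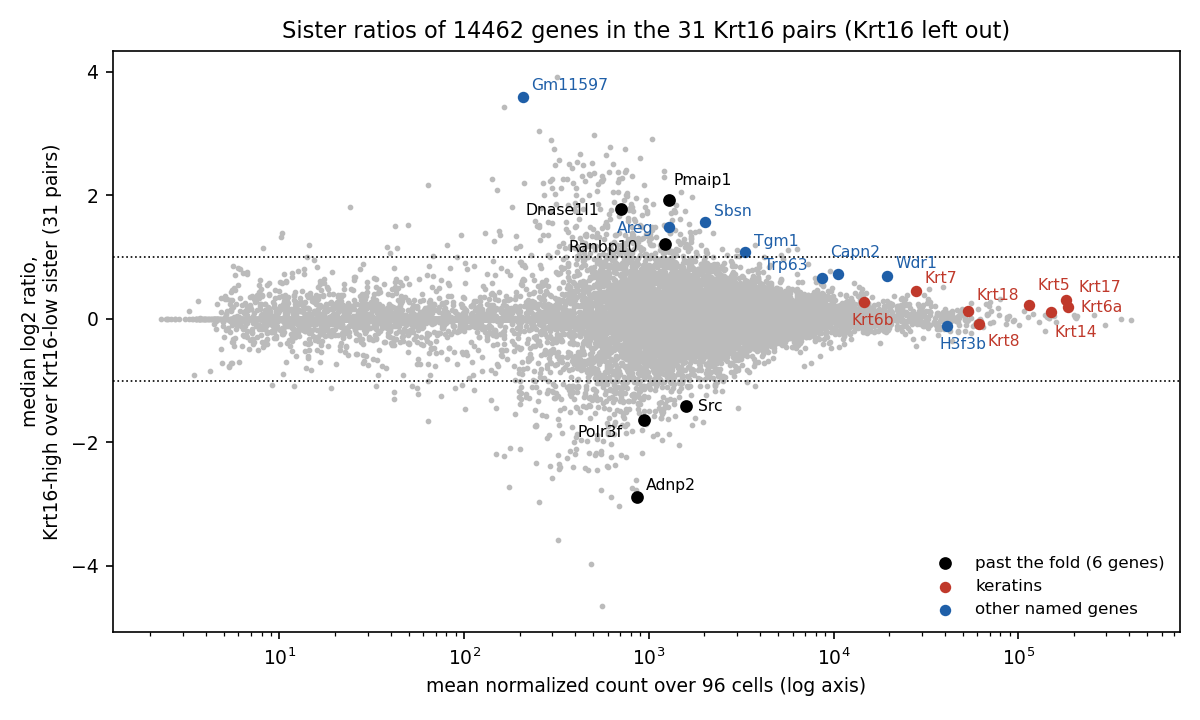
Median log2 ratio of Krt16-high over Krt16-low sister in 31 pairs (vertical axis) against the mean normalized count over 96 cells (log horizontal axis) for 14462 genes. The 6 genes past the fold are black, keratins red and other named genes blue, dotted lines mark log2 ratios of -1 and 1, and the 8 keratins marked in red lie between -0.08 and 0.44.

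In abundant genes the differences were smaller and steadier. Genes with a mean of at least 10000 normalized counts (652 genes) had median log2 ratios of -0.20 to 0.29 from the 5th to the 95th percentile, and the genes named from them were chosen after their values had been seen. Wdr1, which disassembles actin filaments, had 5354, 20956 and 48291 normalized counts (lowest, median and highest) in the Krt16-high sisters and 4745, 13930 and 91526 in the Krt16-low sisters. It was higher in the Krt16-high sister in 24 pairs and lower in 7, with a median log2 ratio of 0.69 (SD 0.95), and in the other 17 pairs, as also without set 9, the ratio was 0.45. Capn2, a calcium-dependent protease, was higher in 20 pairs (0.73, and 0.48 without set 7 or 10) and had a ratio of -0.16 in the other pairs. Msln, which encodes mesothelin, was higher in 19 pairs (0.48, and 0.24 without set 1 or 4), and Alkbh5, an RNA demethylase, was lower in 22 pairs (-0.41, and -0.42 in the other pairs).

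The other keratins of the wound group differed little between the sisters. Krt6a had 23454, 199553 and 750444 normalized counts (lowest, median and highest) in the Krt16-high sisters and 587, 196907 and 603006 in the Krt16-low sisters. It was higher in the Krt16-high sister in 20 pairs and lower in 11, with a median log2 ratio of 0.18 (SD 2.03, and 0.94 without pair 4), and of 0.07 without set 8. Krt17 had 16125, 158770 and 875651 against 499, 147013 and 585842, and was higher in 20 of the 31 and had a median log2 ratio of 0.30 (SD 1.79, and 0.59 without pair 4), and of 0.19 without set 8. Krt6b was also higher in 20 pairs, with a median of 0.27. These medians are well inside the spread between pairs, and the classes overlapped for all 3 genes.

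A direction shared by 20 of 31 pairs was not rare. Among the 6651 genes with a mean of at least 1000, 7.47% were higher in the Krt16-high sister in at least 20 pairs and 5.61% were lower in at least 20, a count chosen after the values had been seen. All 3 wound keratins of that abundance were among the former. Krt6a shares 40.2% of its 50-base words with Krt6b, and Krt6b 44.5% with Krt6a, so their counts are not fully separate. In the other 17 pairs the median log2 ratio was 0.22 for Krt6a, 0.18 for Krt6b and -0.03 for Krt17. Krt17 reached 2-fold in 5 pairs, of which 4 were among the 31 and had the same higher sister as Krt16. Krt6a reached it in 13, of which 7 were among the 31 and 6 had the same higher sister. The plot of Krt17, Krt6a and Krt14 against Krt16 shows the difference between sisters in its lower row.

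Basal keratins and p63 gave values of the same order. Krt14 was higher in the Krt16-high sister in 18 pairs and lower in 13 (median log2 ratio 0.11, and 0.05 without set 8), and Krt5 was higher in 17 and lower in 14 (0.22, 0.15 without pair 4, and -6.97e-05 without set 8). Trp63 had 2077, 8680 and 30586 normalized counts (lowest, median and highest) in the Krt16-high sisters and 65.4, 5552 and 26761 in the Krt16-low sisters. It was higher in the Krt16-high sister in 21 pairs and lower in 10, with a median of 0.66 (SD 1.92), of 0.48 without pair 4 and of -0.10 in the other 17 pairs. Leaving out 1 set of 8 cells took it to 0.24 (set 11) or 0.31 (set 1). Of the 24 pairs in which Trp63 itself reached 2-fold, 15 were among the 31, and in 11 of these the same sister was higher in both. The adhesion genes Itga6, an integrin subunit of hemidesmosomes (0.39, higher in 21 pairs, and 0.17 without set 3, 4 or 10), and Cd44, the hyaluronan receptor (0.42, higher in 19), had ratios of similar size.

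Keratins of simple epithelia had median log2 ratios near 0 in Krt19 (0.03), Krt18 (0.13) and Krt8 (-0.08). Krt7 had a median of 40209 normalized counts in the Krt16-high and 23076 in the Krt16-low sisters and was higher in 20 pairs (0.44, and 0.34 in the other pairs). Tgm1 had a median of 432 against 30.2 and was higher in 21 pairs (median log2 ratio 1.08), with 0.89 without pair 4 and -0.08 in the other 17 pairs. It was not past the fold, because 21 of 31 pairs is under 75%. Suprabasal and envelope genes as a list had a median log2 ratio of 0.00 over the 15 of 26 members that passed the filter. Of these, 6 had a positive median, 3 a negative one and 6 a median of exactly 0. The 9 members with a mean of at least 1000 normalized counts had a list median of 0.19. Sprr genes, which encode small proline-rich envelope proteins, also had a median of 0.00, over 11 of 16. Their 6 members with a mean of at least 1000 had -0.02.

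Gene lists were described by the median of their members and set beside the median of 0 over all genes. Of 37 lists, 33 had at least 3 members that passed the filter, and their median log2 ratios ran from -0.25 for olfactory lineage transcription factors to 0.23 for the wound keratins. Members with a median of exactly 0 hold some list medians at 0. Over members with a mean of at least 1000, the wound keratins had 0.27 and migration and matrix remodelling 0.42 (9 genes). None of the 501 list genes that passed was past the fold. Over all genes the share was 0.0207% in each direction, so low that 0 of 501 says nothing about the lists. Of the 391 with a mean of at least 1000, 7.16% were higher in the Krt16-high sister in at least 20 pairs and 4.60% were lower, near the 7.47% and 5.61% of all genes of that abundance. The HBC marker list had 5 of 6 members with a positive median (list median 0.16), and its summed level was higher in the Krt16-high sister in 18 pairs and lower in 13.

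Proliferation, stress and metabolism lists lay near 0. The S phase list had a median log2 ratio of -0.04 (30 genes), the G2 and mitosis list 0.01 (34 genes), the Nrf2 pathway list 0.01 (23 genes), cytosolic ribosomal proteins -0.01 (80 genes) and mitochondrially encoded genes -0.02 (36 genes). Mki67 was higher in the Krt16-high sister in 16 pairs and lower in 15. Histone H3.3, which the study followed between sister chromatids and as transcripts in these cells, is encoded by H3f3a and H3f3b. H3f3a had a ratio of 0.08 (higher in 17 pairs, and 0.09 in the other pairs). H3f3b had -0.12 (higher in 11, and 0.34 in the other pairs). In pairs with unequal H3.3 transcripts, the study reported Krt16 among genes preferentially expressed by the daughter with more H3.3. Those pairs were chosen by H3.3 and these by Krt16. The study also named Krt16 among genes that differed between the cells it classed as activated and as renewed HBCs. It proposed such genes as possible markers of divisions that give an activated and a renewed daughter. Those classes were not used here. The list of H3.3 and its chaperones had a median of -0.11 (10 genes). A pair of lists was chosen by the study on these cells and is no independent evidence of a direction. Its differentiation genes had a median of 0.05 (5 of 7 passed) and its self-renewal genes -0.13 (8 of 8 passed).

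Markers of other cells of the nose were low in both classes. None of 10 sustentacular and microvillous markers and none of 13 stromal, endothelial and glial markers passed the filter. The summed sustentacular level had a median of 0 in both classes, with 846 as the highest Krt16-high and 654 as the highest Krt16-low cell. Of 13 markers of globose basal cells and neurons 3 passed, with a summed level of 456 normalized counts in the median Krt16-high and 643 in the median Krt16-low cell, against 338947 and 282794 for the HBC markers. The ciliated and secretory list and the immune list had 1 gene each that passed, and the immune gene, Cd68, had a median log2 ratio of -0.98.

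Across all 48 pairs, the Spearman correlation between the sister difference in Krt16 and that in another gene had a median of 0.03 over the genes with a mean of at least 1000, and 95% of these genes lay between -0.24 and 0.30. These correlations describe 48 points from 1 sample that share spike-in scaling within a pair. The 8 highest were 4930523C07Rik (0.50), Gk (0.47), Hsp25-ps1 (0.46), Wdr1, Eaf1, Srp54c and Stat6 (0.45 each) and Hspb1 (0.44). Hspb1 encodes the small heat shock protein Hsp27 and was higher in the Krt16-high sister in 22 pairs (median log2 ratio 0.32, and -0.19 in the other 17 pairs). Hsp25-ps1 shares 86.6% of its 50-base words with Hspb1, and Srp54c shares 93.8% with Srp54b, so these counts are not separate. Gk, a glycerol kinase, was higher in 23 pairs (1.11, and 0.64 in the other pairs), and Stat6, of interleukin 4 signalling, in 20 (0.88, and 0.49 without set 1 or 7).

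The 5 lowest correlations of the sister difference were Chmp7 (-0.48), Ctcf (-0.44), Dld (-0.43), Hsdl1 (-0.43) and Ccdc137 (-0.39). Ctcf, the factor that sets chromatin loop borders, had 637, 2160 and 6528 normalized counts (lowest, median and highest) in the Krt16-high sisters and 1030, 2947 and 7578 in the Krt16-low sisters. It was lower in the Krt16-high sister in 25 pairs and higher in 6, with a median log2 ratio of -0.36 (SD 0.76), and it was lower in 13 of the other 17 pairs (-0.55). The wound keratins lay inside the upper end of the range of all genes, with 0.29 for Krt6a, 0.28 for Krt6b and 0.24 for Krt17, and Krt14 stood at 0.17.

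Between pairs the picture was different. When the 2 sisters were averaged on the log2 scale, the pair mean of Krt16 had a Spearman correlation over 48 pairs of 0.74 with that of Krt17, the highest of the 6651 genes, and of 0.67 with Krt6b, 0.66 with Krt6a and 0.65 with Krt14. These points share the spike-in scaling, which moves all genes of a pair together, and the median gene stood at 0.22. When counts were scaled to the library total in place of the spike-in, the median gene stood at 0.02, Krt17 at 0.69, Krt6b at 0.54, Krt6a at 0.51 and Krt14 at 0.50. Correlations of at least 0.5, a threshold chosen after the values had been seen, were held by 3.32% of the genes with spike-in scaling and by 0.526% with library scaling. Krt17, Krt6a, Krt6b and Krt14 were at or above it under both scalings, but with library scaling and each set of 8 cells centred on its own mean Krt14 fell to 0.47, Krt6b to 0.41 and Krt6a to 0.37, and Krt17 stood at 0.59.

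**Figure D4:**
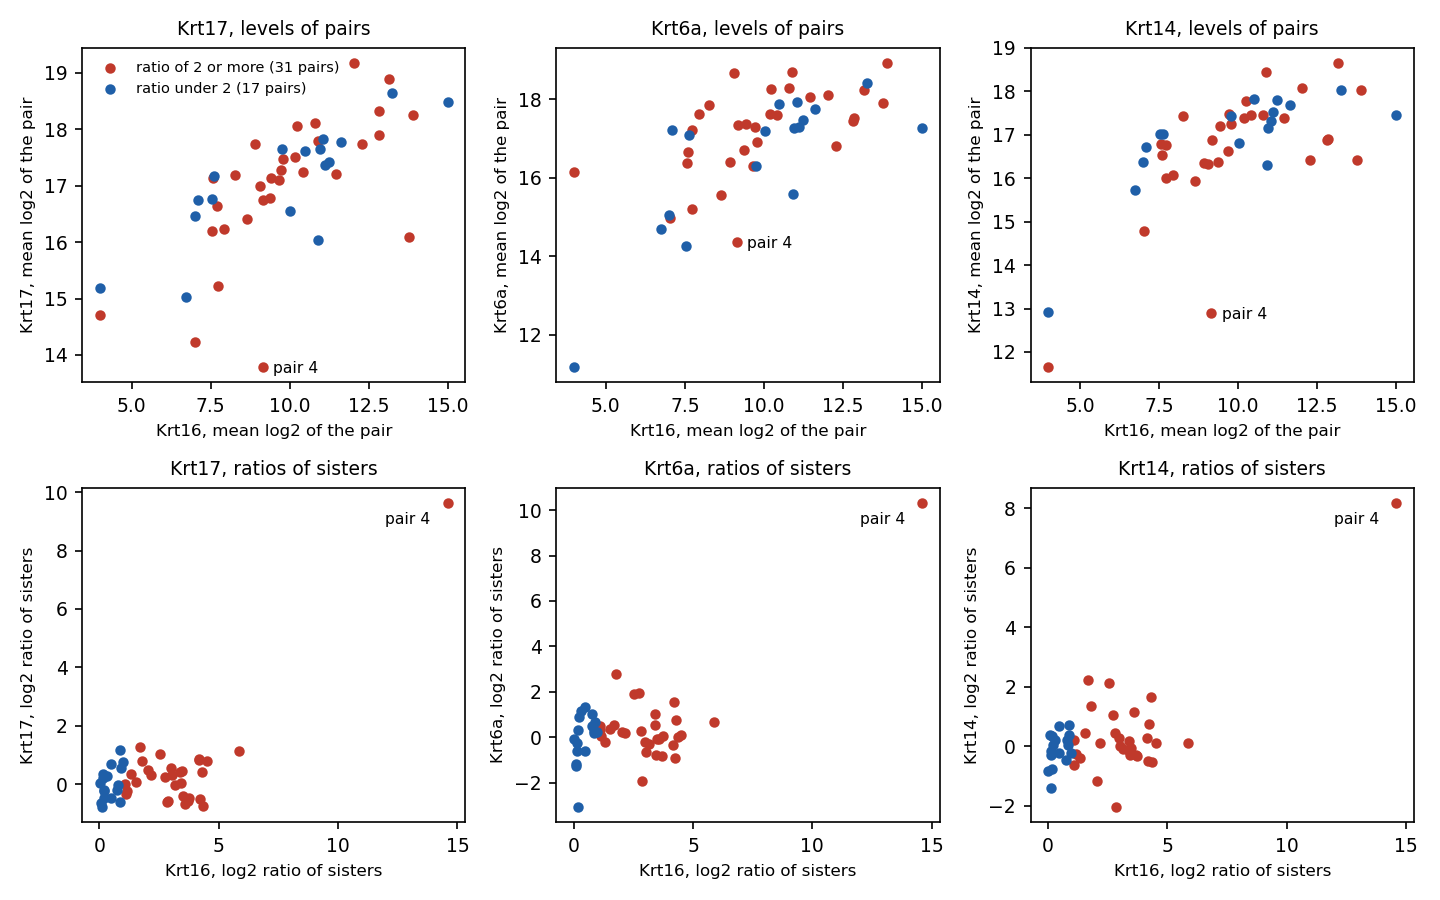
Krt17, Krt6a and Krt14 (columns) against Krt16 as the mean of the 2 sisters of each pair (top, log2 normalized counts) and as the log2 ratio between sisters (bottom), 1 point a pair, with pair 4 marked. The keratins rise with Krt16 from pair to pair in the top row, with correlations of 0.74, 0.66 and 0.65, and spread widely around little change in the bottom row, with 0.24, 0.29 and 0.17.

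Other genes among those most like Krt16 between pairs were Capn2 (0.72, and 0.67 with library scaling), the glycolytic enzyme Pgk1 (0.70 and 0.53) and Tpm4, a tropomyosin of the actin skeleton (0.69 and 0.56). Gm5478 (0.72) shares 7.39% of its 50-base words with Krt6a, and Pgk1-rs7 (0.70) and Gm5537 (0.69) share 100% with Pgk1, so they repeat these genes at least in part. Krt6a and Krt6b also share words with each other, as do Krt14 and Krt16, so their correlations do not rest on fully separate counts. Without pair 4 the correlation of pair means was 0.66 for Krt6a. After each set of 8 cells had been centred on its own mean, it was 0.64 for Krt17, 0.56 for Krt14 and 0.49 for Krt6a.

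Some genes of several lists held correlations of that size. Among members with a mean of at least 1000, 2 of 11 desmosome genes, 3 of 9 suprabasal and envelope genes and 0 of 6 Sprr genes reached 0.5. Of all genes of that abundance 3.32% reached it. The list medians were 0.40, 0.39 and 0.36 (0.22, 0.31 and 0.30 with library scaling), against 0.22 (0.02) for the median gene of that abundance. Such values were not particular to these lists. Hemidesmosome and basement membrane genes had a median of 0.44 (0.19), migration and matrix remodelling 0.36 (0.24), and glycolysis and hypoxia 0.32 (0.16). Genes at 0.5 or more numbered 4, 3 and 6 in the latter lists. By gene, Dsp, the desmosomal plaque protein desmoplakin, had a correlation of 0.66 (0.61 with library scaling), Sfn, the epithelial 14-3-3 protein, 0.64 (0.53), Cd44 0.62 (0.50) and Tgm1 0.54 (0.47). Krt5 stood lower at 0.42 (0.26) and Trp63 at 0.30 (0.08). At the low end were Ly6c1, a surface protein of the Ly6 family, with -0.61 (-0.69 with library scaling), the water channel gene Aqp4 with -0.47 (-0.48) and Cbr2, a carbonyl reductase of airway epithelium, with -0.42 (-0.59). These genes of the low end were named after their values had been seen. The plot of both correlations sets the sister differences beside the pair means.

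**Figure D5:**
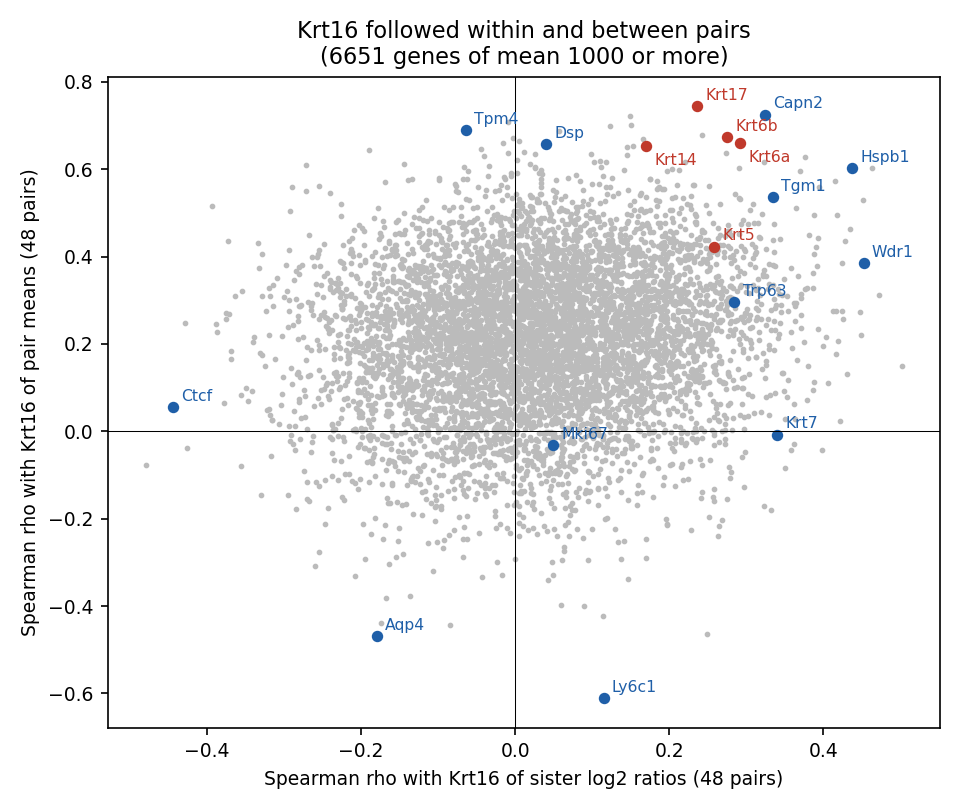
Spearman correlation with Krt16 over 48 pairs of the sister log2 ratio (horizontal axis) and of the pair mean (vertical axis) for 6651 genes with a mean of at least 1000 normalized counts. Krt17, Krt6a, Krt6b and Krt14 sit at the top, from 0.65 to 0.74, but lie between 0.17 and 0.29 on the horizontal axis, where 95% of the genes lie between -0.24 and 0.30, and Ly6c1 lies lowest at -0.61.

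The relation between pairs was found among the 31 pairs and among the other 17. For Krt17 the correlation of pair means was 0.72 (n = 31) and 0.82 (n = 17), for Krt6a 0.64 and 0.81, for Krt6b 0.66 and 0.82, and for Krt14 0.64 and 0.80. The intraclass correlation of sisters on the log2 scale, which is high when sisters are alike and pairs differ, was 0.35 for Krt16, 0.40 for Krt17, 0.44 for Krt6a, 0.39 for Krt6b, 0.56 for Krt14 and 0.47 for Krt5, against 0.22 for the median gene with a mean of at least 1000 (5th to 95th percentile -0.07 to 0.60). For Trp63 it was 0.02. Variation between pairs and variation between mice or cultures cannot be told apart here, since neither mouse nor culture is given.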

How the data were processed

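Paired daughter cells were profiled by G&T-seq, named Smart-seq2 in the series' design text in 1 sequencing lane. Per the submitters' processing notes, the authors trimmed reads with Trimmomatic 0.39, aligned them with STAR 2.7.11a to GRCm38 with ERCC sequences, and quantified genes with StringTie 2.2.1. The authors deposited raw counts of 55487 genes and 92 ERCC RNAs for all 96 cells in 1 table, and TPM values per cell. How reads matching several genes were counted is not given in the sources used here. There were no molecular identifiers.

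Counts were divided by summed ERCC counts, scaled to a mean of 1. Ratios were log2 of normalized count plus 1. TPM was used for levels between genes and as an alternative. Genes needed at least 10 counts in 10% of cells. Named genes were the 12 highest and 12 lowest median ratios, the 8 highest and 5 lowest correlations of sister ratios and the 8 highest of pair means (mean of at least 1000), the keratins, Trp63, Mki67 and H3.3 genes, and the most abundant list members, of which only some are printed. The members and lists were chosen with earlier results of these data known. With 1 sample there was no test. Alternatives were other scalings, thresholds, pseudocounts and filters, and leaving out each pair or set. Scripts were tested on simulated data and used Python 3.11.15, numpy 2.4.6, scipy 1.17.1, pandas 2.3.3 and matplotlib 3.10.9. No column of other samples was found (0 columns). One result that the rule for named genes would print is not reported here.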

Additional observations from a re-analysis of the deposited data

How the results depend on the processing

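The number of chosen pairs was 31 with spike-in counts scaled by median of ratios, 33 with library totals or median of ratios over genes, 32 with TPM, 37 at a ratio of 1.5 and 24 at a ratio of 4. The genes past the fold, 3 higher and 3 lower in the Krt16-high sister, moved more. With pairs chosen again they were 6 and 0 with spike-in median of ratios, 5 and 6 with library totals, 8 and 6 with median of ratios over genes, and 8 and 7 with TPM. With the same pairs, 0 were higher with library totals, with TPM and with a pseudocount of 100. A ratio of 1.5 gave 5 and 0, and a ratio of 4 gave 24 and 19. Chosen after seeing the data, the 23 pairs whose Krt16-high sister had at least 1000 normalized counts gave 18 and 13, and Krt16 and Gm11597 summed gave 7 higher. Leaving out each pair or set in turn gave 4 to 20 higher and 3 to 19 lower (5 and 5 without pair 4), and the count of higher genes moved by over 1.5 times without any set and without any pair other than 6, 10, 17, 29, 32 and 43. Fewer pairs also lower the number that makes 75%. The median over all genes was 0 under all 59 alternatives. A gene without a count in either sister has a ratio of 0 under any scaling, so this constancy is no sign of stability. Among genes with a mean of at least 1000 the main median was 0.01. The 2064 values of lists and the 10501 values of 178 genes each moved by less than the SD over pairs, though values near 0 changed sign (the S phase list ran from -0.08 to 0.10). That SD is of single pairs and is wide for a median over pairs, so staying within it is no sign of stability. Within it, the median log2 ratio of Fam234b ran from 0.65 to 2.99 and that of Polrmt from -2.46 to -0.46. Every ratio is already within a pair, so no further pairing was tried. Genes with means near 1000 had SDs of several log2 units, so small differences between sisters were not detectable there.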
